A study of Homo sapiens with 8 samples.

Results

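The uninduced K562 lines were the 4 libraries, of 8 in the series, made from cells that received no doxycycline. K562 is a human leukaemia line from a patient in blast crisis of chronic myeloid leukaemia, it carries the BCR-ABL1 fusion, and it keeps many features of an early red cell precursor. One line held an inducible SF3B1 transgene with the K700E substitution (K700E_uninduced, 2 libraries) and the other held the wild-type transgene (WT_uninduced, 2 libraries). Both lines thus carried a transgene that had not been switched on, and both were grown in RPMI-1640 with 10% serum. The remaining 4 libraries came from the same lines after 48 h with 1 ug/ml doxycycline (K700E_induced and WT_induced, 2 libraries each) and are used here only beside the uninduced values. The study asked what switching on the mutant or the wild-type protein does to expression and splicing, so the uninduced lines are its baseline. The labels do not say whether a line was a pool or 1 clone, nor whether replicates were separate cultures, so each p-value reflects only the variation among these libraries, which may be technical. A gene's level is its FPKM (fragments per kilobase of transcript, relative to the library's total), summed over its transcripts and scaled between libraries. Of 23573 genes listed on the primary chromosomes, 11197 had a mean of 1 FPKM or more over the 4 uninduced libraries, and these were tested.

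Red cell precursors make hemoglobin from alpha-like and beta-like globins, heme and iron, and the globin genes of each cluster are used in turn during development. The embryonic genes HBZ and HBE1 come first, the fetal genes HBG1 and HBG2 follow in the beta cluster, and HBD and HBB are the adult genes. GATA1, TAL1 and KLF1 are the transcription factors best known for this programme, acting through GATA and CACCC motifs. K562 cells are known for embryonic and fetal globins and for little or no adult beta globin. SF3B1 is the largest subunit of the SF3B complex, which binds the branch point of an intron as part of the U2 snRNP. RNA was prepared as total RNA with ribosomal RNA removed, so RNAs without a poly(A) tail, such as those of the replication-dependent histone genes, were part of the measurement.

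Promoter windows of 6 genes show the kinds of start site behind the levels described here. Each runs from 250 bases before to 50 bases after the start of a gene, 5′ to 3′ on the gene's strand, and comes from RefSeq (GRCh38.p14, a later build than the hg19 of the expression files). Capitals mark 4 motifs, each searched on both strands: the GATA motif AGATAA, which reads TTATCT on the other strand, the CACCC motif, which reads GGGTG there, the CCAAT motif, which reads ATTGG there, and the TATA motif TATAAA, which reads TTTATA there. The first 3 came from the erythroid transcription factor, heme and red cell surface lists. Each was its list's highest-level gene among those with a single window holding a GATA motif. LYL1 is a member of the TAL1 family of factors (chr19:13102809-13103108, minus strand). ALAS2 is the first heme enzyme of erythroid cells (chrX:55030928-55031227, minus strand). GYPE is a member of the glycophorin family (chr4:143905510-143905809, minus strand). The other 3 were the highest-level histone, ribosomal protein and ferritin genes with a single window: the linker histone gene HIST1H1C, named H1-2 in RefSeq (chr6:26056421-26056720, minus strand), RPLP1, an acidic protein of the large ribosomal subunit (chr15:69452568-69452867, plus strand), and FTL, the ferritin light chain (chr19:48965059-48965358, plus strand).
LYL1: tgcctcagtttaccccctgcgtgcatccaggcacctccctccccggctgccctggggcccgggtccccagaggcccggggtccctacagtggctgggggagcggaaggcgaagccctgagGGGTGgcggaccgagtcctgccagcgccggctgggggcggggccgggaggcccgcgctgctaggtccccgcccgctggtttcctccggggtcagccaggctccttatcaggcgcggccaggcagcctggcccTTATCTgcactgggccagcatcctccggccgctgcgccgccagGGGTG
ALAS2: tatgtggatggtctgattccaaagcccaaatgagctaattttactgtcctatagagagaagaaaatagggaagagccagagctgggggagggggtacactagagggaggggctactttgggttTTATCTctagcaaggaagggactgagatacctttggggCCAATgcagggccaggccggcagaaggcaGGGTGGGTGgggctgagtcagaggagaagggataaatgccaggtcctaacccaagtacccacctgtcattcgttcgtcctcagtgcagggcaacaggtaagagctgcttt
GYPE: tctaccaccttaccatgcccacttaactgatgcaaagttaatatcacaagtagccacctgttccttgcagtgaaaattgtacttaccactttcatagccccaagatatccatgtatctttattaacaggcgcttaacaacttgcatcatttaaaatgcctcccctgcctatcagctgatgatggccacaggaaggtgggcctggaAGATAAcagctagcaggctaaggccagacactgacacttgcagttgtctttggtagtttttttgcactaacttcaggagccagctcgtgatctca
HIST1H1C: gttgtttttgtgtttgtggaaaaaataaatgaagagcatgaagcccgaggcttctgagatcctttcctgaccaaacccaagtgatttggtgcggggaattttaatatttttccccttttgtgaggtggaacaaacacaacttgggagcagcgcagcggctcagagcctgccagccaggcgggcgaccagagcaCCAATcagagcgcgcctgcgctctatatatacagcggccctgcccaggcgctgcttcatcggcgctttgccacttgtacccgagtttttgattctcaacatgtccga
RPLP1: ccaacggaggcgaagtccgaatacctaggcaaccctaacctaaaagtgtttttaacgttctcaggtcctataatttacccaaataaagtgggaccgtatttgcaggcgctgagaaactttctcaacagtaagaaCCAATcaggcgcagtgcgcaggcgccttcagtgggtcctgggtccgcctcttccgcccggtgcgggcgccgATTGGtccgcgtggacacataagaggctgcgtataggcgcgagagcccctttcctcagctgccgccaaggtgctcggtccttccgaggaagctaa
FTL: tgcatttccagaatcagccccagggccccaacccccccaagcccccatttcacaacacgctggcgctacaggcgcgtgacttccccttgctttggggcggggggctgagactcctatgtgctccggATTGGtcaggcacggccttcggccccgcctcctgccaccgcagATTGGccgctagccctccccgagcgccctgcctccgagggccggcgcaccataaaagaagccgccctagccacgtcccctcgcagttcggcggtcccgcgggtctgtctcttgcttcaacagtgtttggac

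In the ALAS2 window the GATA motif began 127 bases before the start site, with a CCAAT motif at -89 and overlapping CACCC motifs at -60 and -56. The windows of GATA1, KLF1 and RHAG held no AGATAA. Of 71 windows of the 49 erythroid list genes at 10 FPKM or more, 25.4% held the GATA motif, against 10.3% of all 35116 windows and 5.52% of the 12765 windows of tested genes. The CACCC motif was in 69.0% of these erythroid windows, 59.9% of all windows and 63.8% of tested-gene windows. Histone genes at 10 FPKM or more had the CCAAT motif in 91.5% of 47 windows and TATAAA in 68.1%, against 34.6% and 11.5% of all windows and 35.4% and 5.82% of tested-gene windows. Ribosomal protein genes had them in 32.5% and 6.02% of 83 windows. These matches describe the letters in a window and carry no information on binding. By symbol, 8882 of the 11197 tested genes had a window. The globin genes HBZ, HBE1, HBG1, HBG2 and HBA1 were among those without, so the erythroid shares leave them out. These shares count windows, and a gene with several windows counts in each.

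SF3B1, at chr2:198256698-198299771 of hg19, was listed at 33.3 and 30.7 in K700E_uninduced and 37.7 and 31.3 in WT_uninduced (FPKM). The 2 groups overlapped. The log2 difference, K700E_uninduced minus WT_uninduced, was -0.10 (SE 0.36), limma's adjusted p was 0.990, and without WT_uninduced replicate 1 the difference was 0.028. Transcripts of the transgene and of the gene itself are not told apart in these values.

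No gene differed between the uninduced lines at an adjusted p under 0.05 in limma: 0 of 11197 genes, or 0.0%, were called. The smallest adjusted p was 0.213, shared by TMEM256, DAK, MYEOV2 and RPL10. Without adjustment, p was under 0.05 for 550 genes (4.91%), of which 331 (2.96%) were higher and 219 (1.96%) lower in the K700E_uninduced libraries. The median log2 difference over all tested genes was 0.031, 51.7% of genes lay above 0, the quartiles were at -0.45 and 0.58, and the median standard error was 0.74. With 2 libraries a group, both values of 1 line lay above both of the other for 3703 genes (33.1%), of which 1915 were higher (17.1%) and 1788 lower (16.0%) in K700E_uninduced. An exact permutation test of any single gene cannot go below p = 0.333 in this design. These percentages are the background for each count of genes whose uninduced groups do not overlap.

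The libraries were of like depth, with a median coverage per unit of FPKM of 3.63 to 4.55 in the 4 uninduced libraries and a typical half-width of the deposited interval of 6.22% to 6.60%. Transcripts assembled beyond the reference models were less even, at 39801 and 34386 in K700E_uninduced and 39794 and 24926 in WT_uninduced. Spliced ones added to gene levels numbered 3118 and 2524 in K700E_uninduced and 2740 and 2183 in WT_uninduced. WT_uninduced replicate 2 was the lowest of the 4 in both counts. The effect of these unequal counts was not itself tested. Over 9370 genes, log2 levels correlated at r = 0.861 between the K700E_uninduced libraries, at 0.804 between the WT_uninduced libraries and at 0.806 to 0.855 between libraries of different lines. The K700E pair was thus more alike, and the WT pair less alike, than any pair of different lines. Of the tested genes, 1827 (16.3%) were listed at exactly 0 in at least 1 uninduced library. Such a 0 can be a failed estimate: HSPE1, a mitochondrial chaperonin that all cells use, was listed at 71.9 and 137 in K700E_uninduced and 66.5 and 0 in WT_uninduced.

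Transcript levels spanned a wide range that the 4 libraries shared. By mean level, 6118 genes reached 10 FPKM, 701 reached 100 and 82 reached 1000, and 8351, 4088, 453 and 46 genes were at or above 1, 10, 100 and 1000 FPKM in each of the 4 libraries. The spread between libraries fell with the level. For genes of 300 nt or more, the median coefficient of variation over the 4 libraries was 71.0% at 1 to 10 FPKM (5078 genes), 34.97% at 10 to 100 (5410 genes), 20.8% at 100 to 1000 (597 genes) and 16.9% above that (59 genes).

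Ribosomal protein, globin and ferritin genes led the list of abundant messages. Among the 30 most abundant genes with a transcript of 300 nt or more, 16 encoded ribosomal proteins, 5 were globins and 2 were histones. RPS2, a protein of the small ribosomal subunit, was the highest protein-coding gene at 3851 and 3248 in K700E_uninduced and 3035 and 3695 in WT_uninduced. RPLP1 followed HBG2 at 3256 and 3458 in K700E_uninduced and 1857 and 3491 in WT_uninduced, so that WT_uninduced replicate 1 lay below the other 3 libraries. FTL, which stores iron with the heavy chain FTH1, was among the steadiest at 2684 and 2647 in K700E_uninduced and 2998 and 2695 in WT_uninduced, a coefficient of variation of 5.90%. EEF1A1, which delivers aminoacyl-tRNA to the ribosome, was at 1917 ± 117 (SD, n = 4), ACTB, cytoplasmic actin, at 1896 ± 150.2, and the glycolytic enzyme GAPDH at 1363 ± 80.5. HIST1H1C reached 2332 ± 191, and the core histone gene H2AC11 1689 ± 173. Of the 30, 4 were higher and 5 lower in both K700E_uninduced libraries, 21 overlapped and 0 were called, and their log2 differences ran from -0.22 to 1.05, the latter being HBG2.

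**Figure D1:**
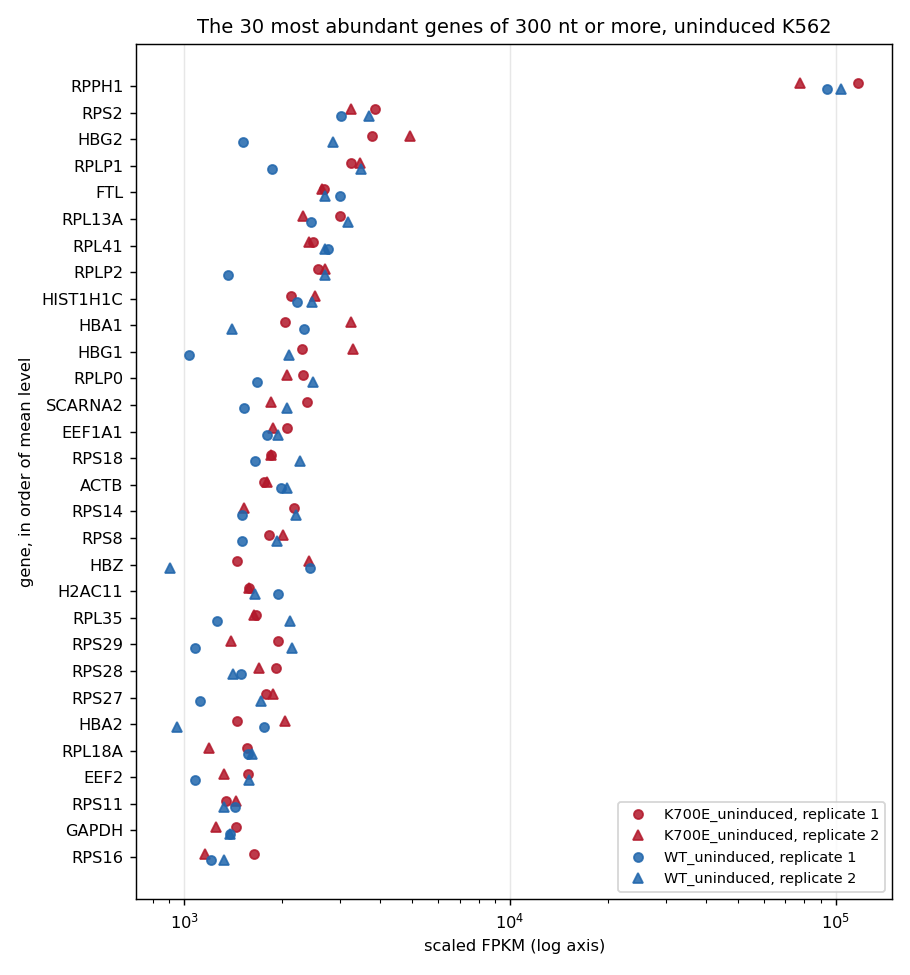
Scaled FPKM (horizontal log axis) of the 30 genes of 300 nt or more with the highest mean level, in order from the top, with 1 point for each of the 4 uninduced libraries (red, K700E_uninduced; blue, WT_uninduced; circle, replicate 1; triangle, replicate 2). RPPH1 stands far to the right at 77588 to 116981, and the other genes lie between 906 and 4919.9 with the colours mixed in most rows.

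Over the 100 most abundant genes of this length, 50 were ribosomal protein genes, 18 histone genes, 6 globins, 6 elongation factors or chaperones, 3 glycolysis enzymes and 2 ferritins. Ribosomal protein genes made up 27.2% to 30.9% of the summed FPKM of the 100, histones 7.19% to 10.7% and globins 3.66% to 8.87%. RPPH1, the RNA of ribonuclease P, which trims the leader from transfer RNA, with SCARNA2, a guide RNA of Cajal bodies, took 38.6% to 48.8%. RPPH1 alone was listed at 116981 and 77588 in K700E_uninduced and 93918 and 104020.0 in WT_uninduced, and its groups overlapped.

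The 64 histone genes tested are described as a class, and the class itself was not tested. Their median log2 difference was -0.045, with 8 higher and 20 lower in both K700E_uninduced libraries and 0 called. The 20 are 31.2% of the class, against 16.0% of all tested genes. HIST1H1C itself overlapped between the lines, at 2126 and 2522 in K700E_uninduced and 2217 and 2465 in WT_uninduced, and H2AC11 was 1580.5 and 1582 in K700E_uninduced and 1944 and 1648 in WT_uninduced. In the induced libraries the class median was 0.20, the opposite sign. The 84 ribosomal protein genes had a median of 0.022, with 10 higher, 12 lower and 0 called, and a median of 0.19 in the induced libraries.

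Features shorter than 300 nt are kept apart, since a level per kilobase grows as the length shrinks. MIR663A, annotated at chr20:26188822-26188914 with 93 nt, was listed at 2823290 to 6986710 FPKM, the highest level among the short features. Its mature miRNA, shown because no other feature had such a level and with the seed (bases 2 to 8) in capitals, is given by RefSeq (GRCh38.p14, chr20:26208243-26208264, minus strand), and 90.9% of its 22 bases are G or C.
hsa-miR-663a: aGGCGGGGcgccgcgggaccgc

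The labels describe no selection of small RNA, so these values are not a measure of the mature miRNA. RMRP, the RNA of the mitochondrial RNA processing ribonuclease, was at 105787 and 90995 in K700E_uninduced and 65190.3 and 107189 in WT_uninduced. BCYRN1, the name of a neuronal RNA polymerase III transcript, was at 17475 and 8233 in K700E_uninduced and 4682 and 7672 in WT_uninduced. Its model of 191 nt was placed across chrX:70430035-70948962, and whether its reads come from the neuronal RNA was not tested. Both BCYRN1 values of K700E_uninduced were above those of WT_uninduced, with a log2 difference of 1.00 (SE 0.41) and an adjusted p of 0.923 in limma. Other short features were listed at high values in some libraries and at 0 in others. MIR4444-1 was at 0 and 135239 in K700E_uninduced and 0 and 61941 in WT_uninduced, and SNORD100, a box C/D guide RNA, at 0 and 132961 in K700E_uninduced and 0 and 0 in WT_uninduced.

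Fetal and embryonic genes supplied nearly all beta-cluster transcripts, the alpha and zeta genes were at like levels, and adult beta globin was near 0. In bulk RNA such as this, fewer cells making a transcript and less of it in each cell cannot be told apart. HBG2 (chr11:5274421-5276011) was listed at 3771 and 4919.9 in K700E_uninduced and 1518 and 2852 in WT_uninduced and ranked 3 among genes of 300 nt or more. HBG1 (chr11:5269502-5271087) was at 2299.8 and 3305 in K700E_uninduced and 1030.0 and 2099 in WT_uninduced. For both fetal genes the K700E_uninduced libraries were above both WT_uninduced libraries, with log2 differences of 1.05 (SE 0.38) and 0.91 (SE 0.42), each at an adjusted p of 0.923 in limma. HBE1, the embryonic gene (chr11:5289580-5291373), ranged widely, at 577 and 2327 in K700E_uninduced and 1077 and 276 in WT_uninduced. HBE1 was high in 1 library of each line and low in the other, and the groups overlapped. HBD was 0 and 0 in K700E_uninduced and 8.44 and 14.5 in WT_uninduced, beside 15.6 and 3.86 in K700E_induced and 6.46 and 0 in WT_induced, and HBB did not exceed 0.0830 in any of the 4. HBG1 and HBG2 are near-identical copies, as are HBA1 and HBA2, so the division of reads within each pair is uncertain.

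In the alpha cluster, HBA1 (chr16:226679-227520) was at 2037 and 3248 in K700E_uninduced and 2334 and 1403 in WT_uninduced and HBA2 at 1451 and 2039 in K700E_uninduced and 1755 and 948 in WT_uninduced. HBZ, the embryonic zeta gene (chr16:202854-204504), was at 1447 and 2417 in K700E_uninduced and 2431 and 906 in WT_uninduced. All 3 overlapped between the lines, with K700E_uninduced replicate 2 or WT_uninduced replicate 1 highest and WT_uninduced replicate 2 lowest. HBQ1, the theta gene, was at 41.01 and 32.7 in K700E_uninduced and 27.3 and 29.9 in WT_uninduced, and HBM, the mu gene, was listed at 0 in every library.

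The share of HBE1 in its cluster differed more between replicates than between lines. HBE1 made up 8.69 and 22.1% of the beta-cluster FPKM in K700E_uninduced replicates 1 and 2 and 29.6 and 5.26% in WT_uninduced replicates 1 and 2. The fetal genes made up 70.1% to 94.5%, and HBZ made up 27.6% to 37.1% of the alpha-cluster FPKM. The beta-cluster sum over the alpha-cluster sum was 1.34 and 1.36 in K700E_uninduced and 0.555 and 1.59 in WT_uninduced. Induced libraries with the same line and replicate number had similar values, a pattern noticed after the values were seen. Their HBE1 shares were 8.98 and 19.3% in K700E_induced replicates 1 and 2 and 23.9 and 6.99% in WT_induced replicates 1 and 2. The alpha-cluster sums were 4976 and 7736 in K700E_uninduced beside 4899 and 8613 in K700E_induced, and 6548 and 3288 in WT_uninduced beside 6252 and 3202 in WT_induced. The labels do not say what libraries of 1 number share.

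**Figure D2:**
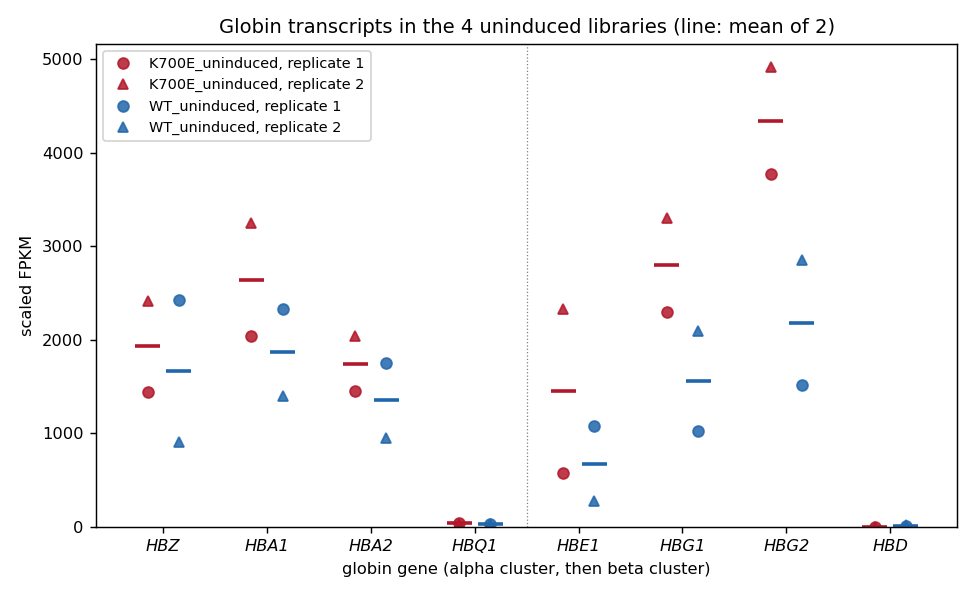
Scaled FPKM (linear vertical axis from 0) of 8 globin genes in the 4 uninduced libraries, with points for libraries (red, K700E_uninduced; blue, WT_uninduced; circle, replicate 1; triangle, replicate 2) and a short line for the mean of 2. HBG2 and HBG1 show both red points above both blue points, the other abundant globins overlap, and HBQ1 and HBD lie near the axis.

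All 21 erythroid transcription factors on the list were at 1 FPKM or more, and 20 were at 10 or more. GATA1 (chrX:48644982-48652717), the master regulator of the lineage, was the highest at 222 and 290.5 in K700E_uninduced and 298 and 257 in WT_uninduced. GATA2, its counterpart in progenitors, was at 75.2 ± 6.75 (SD, n = 4), NFE2, which binds the globin control regions, at 116 ± 42.1, LYL1 at 104 ± 8.53, KLF1 at 96.5 ± 51.6, GFI1B at 82.1 ± 21.2 and TAL1 at 29.6 ± 4.41. KLF1 spanned 43.1 to 166, with both extremes in WT_uninduced. RUNX1, a factor of blood stem cells and megakaryocytes, was lower in both K700E_uninduced libraries, at 23.01 and 22.4 in K700E_uninduced and 45.9 and 46.9 in WT_uninduced, with a log2 difference of -1.02 (SE 0.36) and an adjusted p of 0.923 in limma. LMO2, the bridging protein of the TAL1 and GATA1 complex, was at 18.6 and 35.8 in K700E_uninduced and 12.3 and 7.74 in WT_uninduced. These groups again did not overlap, with a log2 difference of 1.36. With reference transcripts alone LMO2 was at 13.8 and 34.6 in K700E_uninduced and 0 and 0 in WT_uninduced. The size of its difference there, 5.49, depends on those zeros. For RUNX1 the difference with reference transcripts alone was -0.63. Across the 21 genes of the list 3 were higher and 4 lower without overlap, against 17.1% and 16.0% of all tested genes. The median log2 difference was -0.12, and 0 were called.

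Among genes that set which globin is made, the main repressor of the fetal genes was near 0 and several fetal factors were present. BCL11A, that repressor, was at most 0.0304 FPKM. LIN28B, which favours fetal globin, was at 15.8 and 12.7 in K700E_uninduced and 19.4 and 17.9 in WT_uninduced. IGF2BP1, IGF2BP2 and IGF2BP3, RNA-binding proteins of fetal tissue, averaged 80.4, 47.1 and 34.98. HMGA1, a chromatin protein abundant in embryonic and cancer cells, was at 1246 ± 84.9. SOX6, a partner of BCL11A, was at 3.52 ± 2.18, and ZBTB7A, another fetal globin repressor, at 20.3 ± 2.33. IGF2BP2 was lower in both K700E_uninduced libraries, at 35.5 and 30.7 in K700E_uninduced and 72.2 and 50.1 in WT_uninduced, with a log2 difference of -0.85 (SE 0.35) and an adjusted p of 0.923 in limma. With reference transcripts alone the order turned, at 34.5 and 29.7 in K700E_uninduced and 21.3 and 27.2 in WT_uninduced, a difference of 0.41.

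Heme synthesis genes were present throughout the pathway, 18 of 19 at 1 FPKM or more. ALAS2 was at 28.5 and 46.03 in K700E_uninduced and 28.4 and 16.4 in WT_uninduced, and ALAS1, the enzyme of other tissues, at 9.04 ± 2.70 (SD, n = 4). In order of the pathway, ALAD was at 2.52 ± 1.23, UROS at 31.1 ± 13.5, UROD at 315 ± 31.5, CPOX at 15.9 ± 8.75, PPOX at 30.7 ± 16.2 and FECH, which inserts the iron, at 14.1 ± 11.3. From ALAD to FECH, UROD was thus the highest of the enzymes given and ALAD the lowest. HMOX1, the inducible heme oxygenase, was listed at 0 in all 4 libraries, and BLVRB, a reductase abundant in red cells, was the highest gene of the list at 343 ± 56.4. In all, 6 genes of the list were higher and 2 lower without overlap among 18 tested, against 17.1% and 16.0% of all tested genes. With reference transcripts alone 6 were higher and 4 lower. The median log2 difference was 0.20, and 0 were called.

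All 14 iron genes were at 1 FPKM or more. FTL and FTH1 held most of the list's FPKM, with FTH1 at 1105 and 1045 in K700E_uninduced and 1074 and 1005 in WT_uninduced. SLC25A37, the importer of iron into mitochondria, was at 174 ± 53.3 (SD, n = 4), TFRC, the transferrin receptor, at 66.9 ± 22.6, and its relative TFR2 at 61.4 ± 25.7. SLC40A1, the iron exporter, was at 7.69 ± 2.24. Of the 14, 0 were higher and 1, FTL, was lower without overlap, against 17.1% and 16.0% of all tested genes. The median log2 difference was -0.069. With reference transcripts alone 2 were higher and 3 lower, FTL not among them, against 16.6% and 15.6% of all tested genes.

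Of 29 genes for the red cell membrane and surface, 28 were at 1 FPKM or more and 23 at 10 or more. GYPC, which anchors the cytoskeleton, was at 224 and 191 in K700E_uninduced and 119.6 and 142 in WT_uninduced, with a log2 difference of 0.66 (SE 0.29) and an adjusted p of 0.923 in limma. RHAG, the Rh-associated glycoprotein, was at 136 and 208 in K700E_uninduced and 196 and 88.7 in WT_uninduced. GYPB, a glycophorin of the red cell surface, was listed at 39.3 and 124 in K700E_uninduced and 73.2 and 0 in WT_uninduced. Reads of near-identical members of that family may be divided wrongly among them. EPOR, the erythropoietin receptor, was at 16.6 ± 13.1 (SD, n = 4) and KEL, the Kell antigen, at 35.2 ± 13.97. With reference transcripts alone EPOR averaged 2.90, with 0 in replicate 1 of each uninduced line, and KEL averaged 17.6. SLC4A1, the anion exchanger band 3, was only at 8.70 and 10.5 in K700E_uninduced and 4.34 and 0.803 in WT_uninduced, groups that overlapped with reference transcripts alone. On this list 6 of 28 tested genes were higher and 5 lower without overlap, against 17.1% and 16.0% of all tested genes. In limma 0 were called. With reference transcripts alone 4 were higher and 2 lower.

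Genes of the last stages of red cell maturation were low or at 0 for the most part. AHSP, the alpha globin chaperone, was listed at 0 in all 4 libraries, ALOX15 did not exceed 0.00551, and CA2 was at 0 outside WT_uninduced replicate 1. PRDX2, an antioxidant enzyme abundant in red cells, was the exception at 264 ± 24.1 (SD, n = 4), and it made up 70.3% of the list's summed level. BNIP3L, which clears mitochondria, was at 21.04 ± 6.56, BPGM at 6.92 to 15.2 and TRIM58 at 8.04 ± 2.05. Of the 14, 9 reached 1 FPKM.

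Most markers of other blood cells were under 1 FPKM, and the few abundant ones were found in both lines. Among 17 myeloid genes, 10 were listed at 0 in all 4 libraries, including MPO, CD14 and ELANE, and the summed level was 98.9 and 65.5 in K700E_uninduced and 105 and 141 in WT_uninduced. SPI1, the myeloid factor PU.1, was the highest at 27.9 and 9.84 in K700E_uninduced and 28.8 and 81.1 in WT_uninduced. CD68 was at 24.7 ± 7.80 (SD, n = 4), CD33 at 18.8 ± 5.56 and LYZ, lysozyme, at 18.4 ± 5.65. Among 12 lymphoid genes, 7 were at 0 in all 4, including MS4A1, PAX5 and LCK, and CD3D held 94.5% of the summed level at 57.5 and 21.97 in K700E_uninduced and 22.1 and 36.8 in WT_uninduced. CD3E, its partner in the T cell receptor complex, was at 0 in all 4. Among 9 stem and progenitor markers, CD34, HOXA9, PROM1, ERG and FLT3 were at 0 in all 4, and MECOM and MEIS1 were at 4.98 ± 2.96 and 4.01 ± 2.68.

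Of 12 megakaryocyte genes, 5 were at 0 in all 4 libraries, including PF4, PPBP and GP9. ITGA2B, the platelet integrin alpha chain, was at 28.5 and 16.2 in K700E_uninduced and 7.04 and 28.98 in WT_uninduced. GP1BB was listed at 0 and 326 in K700E_uninduced and 358 and 0 in WT_uninduced, all or nothing in 1 library of each line, and its value sets the list's sum.

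Keratins 8 and 18 and vimentin were the most abundant epithelial and mesenchymal markers, and all 3 were higher in both K700E_uninduced libraries. KRT8, a keratin of simple epithelia (chr12:53290971-53343650), was at 605 and 544 in K700E_uninduced and 361 and 218 in WT_uninduced, its partner KRT18 at 508 and 392 in K700E_uninduced and 281 and 193 in WT_uninduced, and VIM, vimentin, at 242 and 192 in K700E_uninduced and 178 and 95.1 in WT_uninduced. Their log2 differences were 1.03 (SE 0.29), 0.93 (SE 0.30) and 0.73 (SE 0.41), each with an adjusted p of 0.923 in limma. In the induced libraries the differences were 0.23, 0.37 and -0.52. With reference transcripts alone VIM overlapped, at 27.3 and 186 in K700E_uninduced and 174 and 90.7 in WT_uninduced, a difference of -0.81. KRT19 overlapped between the lines, at 73.2 and 22.9 in K700E_uninduced and 27.5 and 43.1 in WT_uninduced. Of the 7 markers tested, 4 were higher and 0 lower without overlap, against 17.1% and 16.0% of all tested genes. Log2 differences were above 0 for 5 of them and below 0 for 2. The 13 stromal and epithelial markers summed to 1467 and 1178 in K700E_uninduced and 878 and 589.9 in WT_uninduced. KRT8 alone held 42.0% of the summed level. COL3A1 and LUM were at 0 in all 4 libraries, CDH1 did not exceed 0.0171, and EPCAM was at 26.6 ± 9.55 (SD, n = 4). The part of these markers in other differences between the lines was not tested.

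**Figure D3:**
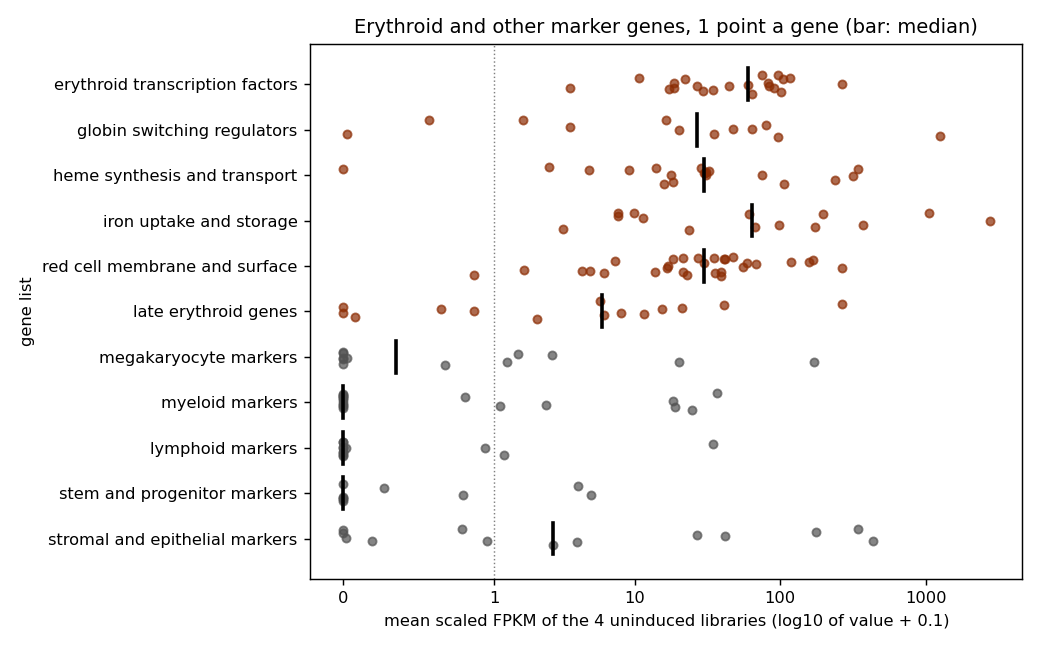
Mean scaled FPKM over the 4 uninduced libraries (horizontal axis, log10 of the value plus 0.1) of each gene on 11 lists, with 1 point a gene, a bar at the list median and a dotted line at 1 FPKM (brown, erythroid lists; grey, markers of other cells). Most erythroid genes lie right of the line, and most myeloid, lymphoid, and stem and progenitor markers lie at 0.

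Genes known to be altered in K562 were used to check the label. CDKN2A and CDKN2B, the cell cycle inhibitors of chromosome 9 that this line lacks, were listed at 0 in all 4 libraries, and their neighbour MTAP did not exceed 0.0353. ABL1 was at 95.5 and 93.9 in K700E_uninduced and 101 and 106 in WT_uninduced and BCR at 71.5 and 38.8 in K700E_uninduced and 44.4 and 93.6 in WT_uninduced, values that include any reads of the fusion.

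The genes with the smallest unadjusted p were taken by a fixed rule: above 0 in all 8 libraries, at 10 FPKM or more, with a transcript of 300 nt or more, without overlap between the lines, and with the same sign when reference transcripts alone were summed. Of 4255 genes that met all conditions but the overlap, 756 were higher and 781 lower without overlap, and the 12 of smallest p on each side follow. None passed the adjusted threshold, and their adjusted p in limma ran from 0.683 to 0.923. These values chose the genes, so they are a description.

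MYLIP, a ubiquitin ligase that removes the LDL receptor (chr6:16129317-16148478), had the smallest p of the 12 higher genes, at 55.1 and 49.4 in K700E_uninduced and 10.4 and 12.1 in WT_uninduced, a log2 difference of 2.17 (SE 0.40). MPST, a mitochondrial and cytosolic sulfurtransferase (chr22:37415683-37425863), was at 38.9 and 53.7 in K700E_uninduced and 10.4 and 13.4 in WT_uninduced, 1.91 (SE 0.37) on the log2 scale. PSMG4, an assembly chaperone of the proteasome (chr6:3259162-3268300), was at 62.6 and 52.9 in K700E_uninduced and 19.00 and 7.43 in WT_uninduced, 2.22 (SE 0.48). In all 3 genes the 2 libraries of a line lay closer to each other than to the other line. ALDH1A2, which makes retinoic acid, was at 221 and 241 in K700E_uninduced and 104 and 131 in WT_uninduced, 0.98 (SE 0.25). FDFT1, squalene synthase, was at 140.4 and 153 in K700E_uninduced and 70.6 and 77.1 in WT_uninduced, 0.99 (SE 0.26). ELP2, a subunit of the Elongator complex, had the largest difference, 2.85 (SE 0.70), from 46.9 and 21.9 in K700E_uninduced and 6.55 and 2.40 in WT_uninduced. The others were NANS, which makes sialic acid (1.76, SE 0.40), PDDC1 (2.03, SE 0.50), the proprotein convertase PCSK6 (2.27, SE 0.56), NMD3, which exports the large ribosomal subunit (1.61, SE 0.41), CPED1 (1.31, SE 0.34) and the noncoding LOC100128822 (2.63, SE 0.70).

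On the lower side, HMOX2, the constitutive heme oxygenase (chr16:4524719-4560348), was at 5.22 and 5.75 in K700E_uninduced and 30.3 and 31.1 in WT_uninduced, a log2 difference of -2.38 (SE 0.47). Its 2 libraries of each line lay within 1 FPKM of each other. RGS14, a regulator of G protein signalling, was at 9.92 and 7.91 in K700E_uninduced and 30.3 and 67.8 in WT_uninduced, -2.29 (SE 0.52). HINT2, a mitochondrial hydrolase, had the largest difference, -3.64 (SE 0.91), from 10.2 and 1.31 in K700E_uninduced and 41.5 and 70.9 in WT_uninduced. It was -2.35 without K700E_uninduced replicate 2, -4.92 without replicate 1 of that group, and -2.01 with reference transcripts alone, smaller than that of PDZD11 (-2.44) or HMOX2 (-2.37). SLBP, which binds the stem-loop of histone messages and is needed for their processing, was at 18.7 and 17.9 in K700E_uninduced and 42.8 and 65.7 in WT_uninduced, -1.51 (SE 0.43). The other 8 were RNF130 (-2.04, SE 0.50), PDZD11 (-2.45, SE 0.63), UQCR11, a subunit of respiratory complex III (-1.47, SE 0.38), PEBP1, an inhibitor of RAF kinase (-1.17, SE 0.31), C5orf22 (-2.01, SE 0.55), LSM12 (-1.37, SE 0.37), the helicase DDX20 of the SMN complex (-1.80, SE 0.51) and ETFA, an electron carrier of fatty acid oxidation (-1.17, SE 0.34).

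**Figure D4:**
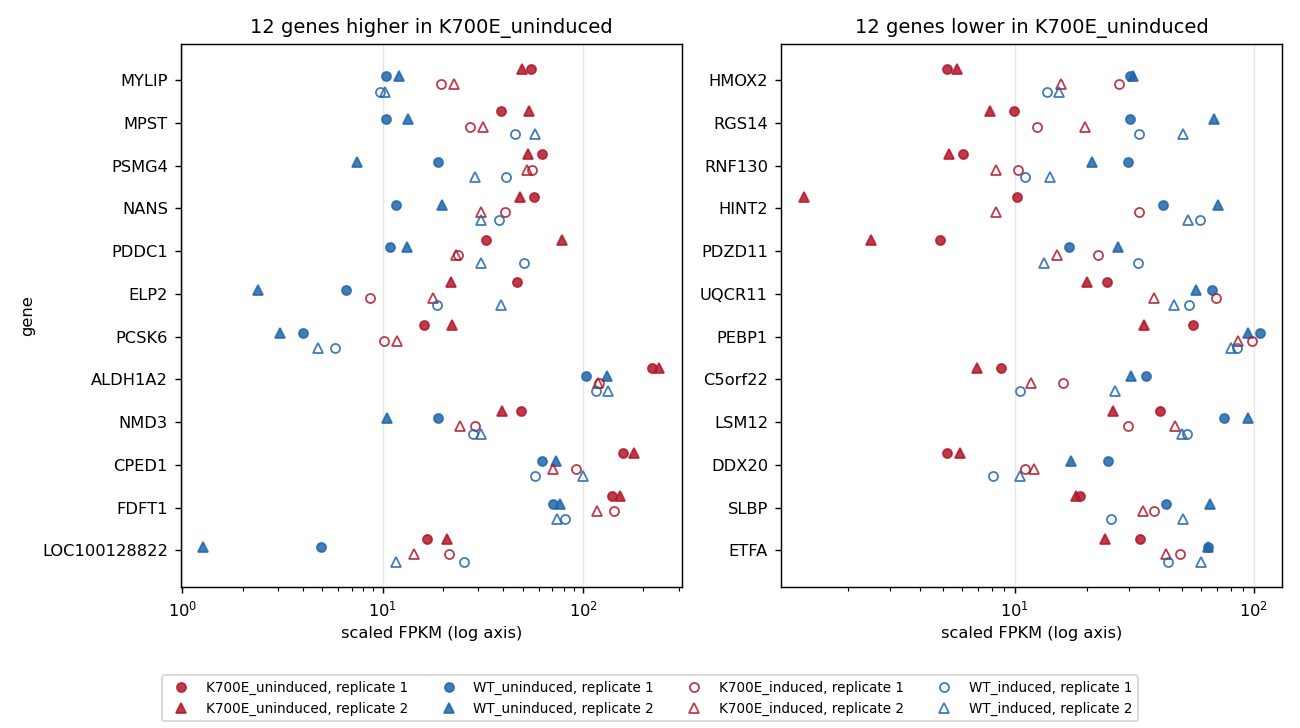
Scaled FPKM (horizontal log axes) of the 12 genes higher and the 12 genes lower in K700E_uninduced with the smallest unadjusted p, with 1 point a library (red, K700E line; blue, WT line; filled, uninduced; open, induced; circle, replicate 1; triangle, replicate 2). Filled red and blue points are apart because the rule chose them so, and in many genes the open points lie between them.

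The same contrast of lines was computed in the induced libraries, which share no library with the uninduced ones. The labels do not say whether induced and uninduced libraries came from the same cultures. With doxycycline the mutant transgene was induced in the K700E line and the wild-type transgene in the WT line. The induced contrast thus holds line and transgene together, so it is not a repeat of the uninduced contrast. A kept or changed sign there cannot tell line from transgene, and their separate parts were not tested. Among the 12 higher genes, 7 had the same sign there and 5 the opposite sign, and among the 12 lower genes 7 and 5. Over all tested genes the sign was the same for 5857 of 11197, or 52.3%. The median log2 difference of the 12 higher genes was 1.97 without and 0.041 with doxycycline, and that of the 12 lower genes -1.91 and -0.18. Of the induced libraries themselves, 4 of the 12 higher genes had both K700E_induced values on top and 3 had both at the bottom. The same counts, 4 and 3, held for the 12 lower genes in their own direction and against it. The share of all tested genes without overlap in the induced libraries was not counted, so these counts have no background.

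MYLIP kept its order, at 19.5 and 22.7 in K700E_induced and 9.72 and 10.3 in WT_induced, a log2 difference of 1.04. FDFT1 did so too, at 143 and 118 in K700E_induced and 81.2 and 74.4 in WT_induced (0.74), as did RGS14, at 12.4 and 19.7 in K700E_induced and 33.01 and 50.5 in WT_induced (-1.36). MPST had the opposite order, at 27.3 and 31.8 in K700E_induced and 45.8 and 57.7 in WT_induced (-0.79), as did ELP2, at 8.61 and 17.7 in K700E_induced and 18.7 and 39.2 in WT_induced (-1.10). HMOX2 was at 27.3 and 15.7 in K700E_induced and 13.6 and 15.3 in WT_induced (0.50), and ALDH1A2 was at 120.2 and 119 in K700E_induced and 116 and 133 in WT_induced, close to its WT_uninduced level. The test of the difference between the 2 line contrasts called 0 of 11197 genes (0.0%), with an adjusted p of 0.998 for each of the 24 in limma, and the line contrast in the induced libraries called 0 (0.0%), with 49.1% of genes above 0.

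**Figure D5:**
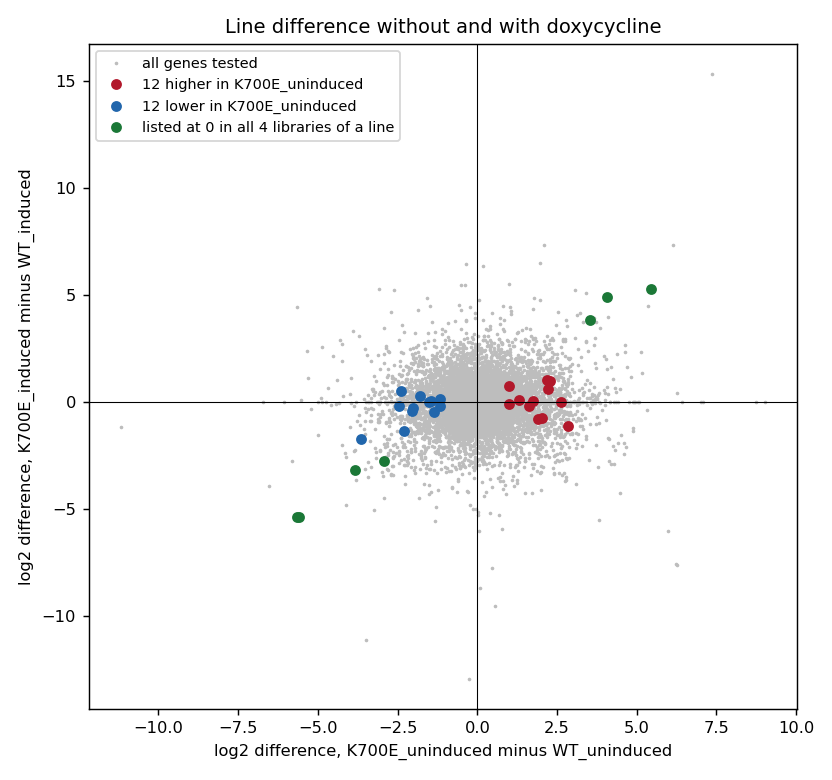
Log2 difference between the K700E and the WT line without doxycycline (horizontal axis) against the same with doxycycline (vertical axis), with 1 point a gene (grey, all tested genes; red and blue, the 12 higher and 12 lower genes; green, the tested genes listed at 0 in all 4 libraries of 1 line). The grey cloud is centred on 0 with little slope, and the green points have the same sign on both axes, as their choice requires.

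Some differences depended on which transcripts were summed. RPL10, a protein of the large ribosomal subunit (chrX:153626571-153630680), was at 1911 and 1983 in K700E_uninduced and 638 and 716 in WT_uninduced, the largest log2 difference among the 100 most abundant genes, 1.52 (SE 0.20), with an adjusted p of 0.213 in limma. With reference transcripts alone its values were 374 and 295 in K700E_uninduced and 624 and 683 in WT_uninduced, and the difference was -0.97, the opposite sign. ABCB8, a mitochondrial transporter (chr7:150725510-150744869), was at 67.1 and 59.1 in K700E_uninduced and 18.4 and 15.1 in WT_uninduced, a difference of 1.89 (SE 0.41), but at 6.43 and 7.04 in K700E_uninduced and 18.02 and 14.4 in WT_uninduced with reference transcripts alone (-1.20). For MYLIP the difference was 2.17 in full and 0.60 with reference transcripts alone, and for RGS14 -2.29 and -0.14. For CPED1 it was 0.16 with reference transcripts alone, for PDDC1 0.18, for LSM12 -0.34 and for C5orf22 -0.74. In all, 3 of the 12 higher and 4 of the 12 lower genes shrank by over 1.5 times, and 11 and 8 still did not overlap. MPST and PSMG4 were at 1.81 and 2.23, close to their full values. The transcripts that made the difference in RPL10 and ABCB8 were thus those that Cufflinks assembled beyond the reference models. Over all tested genes, 1290 of the 1915 higher and 1229 of the 1788 lower without overlap stayed so with reference transcripts alone, and 110 lay apart in the opposite order.

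A set of 8 genes was listed at exactly 0 in all 4 libraries of 1 line and at 1 FPKM or more in all 4 of the other, and was chosen after the values were seen. At 0 in the K700E line were DAK (chr11:61100654-61116231), a dihydroxyacetone kinase, MYEOV2 (chr2:241065980-241075764), A1BG (chr19:58858172-58864865), a plasma glycoprotein, and ASGR1 (chr17:7076751-7082883), an asialoglycoprotein receptor. DAK was at 24.8 and 22.1 in WT_uninduced and 22.5 and 17.8 in WT_induced. With reference transcripts alone it was at 0 in WT_uninduced replicate 1 and 21.1 in replicate 2, and its log2 difference was -2.72 in place of -5.58. MYEOV2 was at 20.3 and 30.2 in WT_uninduced and 18.4 and 22.5 in WT_induced. A1BG was at 3.06 and 3.53 and ASGR1 at 3.13 and 13.6 in WT_uninduced.

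At 0 in the WT line were LOC81691, an exonuclease-like gene (chr16:20817767-20860990), CCDC77 (chr12:498516-551806), ORMDL2, a regulator of sphingolipid synthesis (chr12:56211806-56214959), and LUZP4 (chrX:114524292-114542121). LOC81691 was at 15.9 and 28.7 in K700E_uninduced and 20.6 and 17.5 in K700E_induced. CCDC77 was at 6.51 and 4.22 in K700E_uninduced and 7.63 and 5.81 in K700E_induced. ORMDL2 was at 10.5 and 5.76 without and 8.68 and 24.8 with doxycycline, and LUZP4, under the level for testing, at 1.52 and 2.27 without and 3.32 and 4.72 with it. DAK, MYEOV2 and LOC81691 had adjusted p-values of 0.213, 0.213 and 0.225 in limma for the uninduced libraries. Whether these zeros are absence of the transcript or failed estimates was not tested. By contrast TMEM256 and IGFLR1, also among the 7 smallest p-values and at 0 in both WT_uninduced libraries, were at 25.4 and 21.04 and at 8.84 and 3.16 in WT_induced, and ARPC4-TTLL3, at 0 in K700E_uninduced, was at 0 in WT_induced.

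Lists that describe the state of the cells showed no gene called. For SF3B and SF3A subunits, all 10 tested, the median log2 difference was 0.075, with 2 higher and 2 lower without overlap. SF3B5, a small subunit, was the highest at 142 and 158 in K700E_uninduced and 160.3 and 148 in WT_uninduced. For 11 genes known to be misspliced in SF3B1-mutant cells the median was 0.19, and MAP3K7, a kinase of inflammatory signalling, was at 11.1 and 12.5 in K700E_uninduced and 12.7 and 13.7 in WT_uninduced. Of 20 proliferation genes 1 was higher and 4 were lower without overlap, and 3 and 1 with reference transcripts alone. CDK1, the mitotic kinase, was at 43.1 and 42.8 in K700E_uninduced and 61.6 and 104 in WT_uninduced, a difference of -0.89, but overlapped with reference transcripts alone, at 41.9 and 41.3 in K700E_uninduced and 60.2 and 38.1 in WT_uninduced (-0.20). Of 17 glycolysis enzymes 2 were higher and 3 lower, with HK1, a hexokinase, at 136 and 144 in K700E_uninduced and 208 and 172 in WT_uninduced. HK1 also overlapped with reference transcripts alone, at 133 and 139 in K700E_uninduced and 98.8 and 164 in WT_uninduced, and its difference went from -0.43 to 0.097.

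Of 15 integrated stress response genes 3 were higher and 1 was lower without overlap, against 17.1% and 16.0% of all tested genes. ASNS, asparagine synthetase, was at 252 and 264 in K700E_uninduced and 137 and 172 in WT_uninduced, while ATF4, the factor that drives the response, overlapped, at 288 and 365 in K700E_uninduced and 322 and 317 in WT_uninduced. Of 17 cholesterol synthesis genes 6 were higher and 1 was lower without overlap, against 17.1% and 16.0% of all tested genes, with a median of 0.10 and a median of 0.38 in the induced libraries. With reference transcripts alone 8 were higher and 1 lower, with a median of 0.62, but these were in part other genes. Only 4 were higher both ways, 0 were lower both ways, and 2 lay apart in the opposite order. INSIG1, 1 of the 8, was listed at 0 in WT_uninduced replicate 1 with reference transcripts alone. DHCR7, the last enzyme of the pathway, was at 103 and 140.0 in K700E_uninduced and 66.4 and 81.9 in WT_uninduced. Of 17 interferon-inducible genes 8 were tested. IFITM2, a membrane protein that blocks virus entry, was at 36.6 and 24.2 in K700E_uninduced and 107 and 357 in WT_uninduced. Its relatives overlapped between the lines. IFITM1, the highest of the list, was at 452 and 424 in K700E_uninduced and 384 and 876 in WT_uninduced. IFITM3 was at 139 and 227 in K700E_uninduced and 25.8 and 327 in WT_uninduced. MX1, IFIT2 and OAS1 were listed at 0 in all 4 libraries.

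By chromosome, over 5084 genes that reached 5 FPKM in each of the 8 libraries, the median log2 difference ranged from -0.16 (chromosome 21, 62 genes) to 0.11 (chromosome 13, 45 genes) without doxycycline. Chromosome 7 (261 genes) was at 0.091 without and 0.096 with doxycycline, chromosome 11 (306 genes) at 0.099 and 0.092, and chromosome 15 (161 genes) at -0.091 and -0.082. Chromosome 21 was at -0.0046 with doxycycline. These chromosomes were named after their values were seen.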

How the data were processed

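The deposited files are transcript models, 1 set per library, in which each transcript carries an FPKM estimate that the authors made with Cufflinks after alignment with TopHat to hg19, per the submitters' processing notes (CASAVA is also listed). Their versions and the read totals, not given in the sources used here, could change the estimates. The FPKM values sit in the attribute text of the deposited files, beside a confidence interval and a coverage. Reference transcripts were joined to 23573 genes: of 40801 accessions, 33391 were named by the files, 7065 by a RefSeq table, 259 by shared introns, and 86 stayed unnamed. Assembled spliced transcripts of 300 nt or more, and single-exon ones with 90% reciprocal overlap, were added to their gene. Levels are these sums, divided by a median-ratio factor (0.990 to 1.04, from 7582 genes).

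limma 3.58.1 with a trend was fitted to log2(FPKM + 0.5) of all 8 libraries as 4 group means, so the groups share 1 estimate of spread. Genes with a mean of 1 FPKM or more over the uninduced libraries were tested, with Benjamini-Hochberg adjustment and a threshold of 0.05. Log2 differences are on the log2(value + pseudocount) scale, which understates those of low genes. The fit was tested on simulated data.

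Named genes were SF3B1; up to 10 a side past the threshold; the 12 a side of smallest p under the conditions given in the text; the 30 most abundant genes and the 10 highest short features; members of the lists, by level; and RPL10, MYLIP, MPST, PSMG4, ABCB8 and RGS14. The members and the 22 lists were chosen with earlier results of these data known. SF3B6 and SC5D were read under the older symbols SF3B14 and SC5DL. Alternatives were other pseudocounts, filters, scalings, transcript sets, fits and the omission of each library. Replicate numbers were not used to pair the libraries in the main fit. A few members of the lists are counted but not reported here by name.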

Additional observations from a re-analysis of the deposited data

How the results depend on the processing

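The count of 0 genes called between the uninduced lines held with a pseudocount of 0.1 or 1, a mean of 5 FPKM or more, genes above 0 in all 8 libraries, unscaled values, quantile normalization and the 4 uninduced libraries alone. It was 25 of 14598 genes with no filter on low values, RPL10 among them (adjusted p 0.042), 4 of 10805 with reference transcripts alone and 6 with limma without a trend. Leaving out each library in turn gave 0 to 9 genes: 9 without K700E_uninduced replicate 1, 2 without replicate 2 of that group and 2 without WT_uninduced replicate 2. The lone library left in a group was assumed to vary like the other groups. With the replicate number as a block the count was 0 and the SF3B1 difference -0.10. Deviations of same-numbered libraries from their group means correlated at r = 0.047 within the K700E line and 0.10 within the WT line. Between the lines they correlated at -0.042 to -0.012. The numbers were not taken as pairs, and a block common to both lines cannot take up likeness within 1 line. The SF3B1 difference ran from -0.24 to 0.028 on leaving out a library, the last, of opposite sign, without WT_uninduced replicate 1. The share of genes with 1 sign in both line contrasts, 52.3%, was 49.7% with no filter and 50.8% with reference transcripts alone. Reference transcripts alone reversed RPL10 (-0.97) and ABCB8 (-1.20). The causes were not tested. Genes at 1 FPKM or more numbered 11065 to 11166 on leaving out a library. The median coefficient of variation over the 4 libraries was 71.0% for genes at 1 to 10 FPKM and 20.8% for genes at 100 to 1000.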
